A study of Gallus gallus with 9 samples.

Results

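Solute carrier genes encode membrane proteins that move amino acids, sugars, ions, vitamins, nucleotide sugars and metabolites into cells or between their compartments. They were taken as all genes whose single platform symbol reads SLC, a family number, a letter from A to G and a member number. The array held 623 such probe sets for 271 genes of 47 families, and each gene was represented by its brightest probe set. A gene was kept when its signal lay above the background of all 3 arrays of at least 1 prominence, background being the 95th percentile of the probe sets for viral and reporter sequences on that array. This kept 192 of the 271 genes, in 44 families, out of 9617 genes kept by the same rule among the 13009 measured. The genes were thus chosen by their signal levels, so the level of a kept gene is a description. A gene kept through a single prominence was bound to be high there, and counts of differences are therefore given over all 271 genes.

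In textbook terms, carriers of this superfamily work as exchangers, as facilitators that follow a gradient, or as cotransporters that use the sodium gradient made by the sodium pump. Many are housekeeping genes, whereas others mark a cell type, such as the anion exchanger of red blood cells or the choline carrier of cholinergic neurons. In early facial buds, growing mesenchyme and epithelium depend on them for amino acids, glucose, lactate export and the sugar donors of matrix synthesis.

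The samples came from 3 facial buds of normal, untreated chicken embryos, the mandibular and maxillary prominences and the frontonasal mass, taken at Hamburger Hamilton stage 18, incubated at 38 °C. The lower jaw grows from the first, the sides of the upper jaw from the second and the middle of the upper beak from the third, which was dissected between the nasal pits. Each group had 3 pools of 26 to 32 pieces, called biological replicates in the labels, and each pool was hybridised to 1 array. The genotype is labelled unknown, the labelled tissue is mesenchyme together with epithelium, and the p values measure the spread between pools. Signals are array intensities scaled to a common median, and differences are on the scale log2(signal + 16). A gene was called when its limma adjusted p, taken over all 38439 probe sets, was under 0.05.

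Background lay between 31.6 and 37.1 signal units, and between 182 and 198 of the 271 carrier genes exceeded it on a given array. Among markers of the labelled tissue, 9 of 11 crest mesenchyme genes and 7 of 8 measured epithelial genes were above background. So were 9617 of all 13009 genes, and these counts do not set the markers apart. Genes of several marker lists were called between the groups. Of 10 neural tube and placode genes, 8 were lower in mandibular and 7 in maxillary than in frontonasal pools, beside 2.31% and 2.21% of all genes. Of 16 endothelial genes 5 and 3 were higher, and of 11 crest mesenchyme genes 3 and 2, beside 1.83% and 1.31% of all genes. Epithelium differed too, with 2 and 4 of 8 measured genes lower and 1 higher in each comparison. Neuronal genes were lower in 2 and 4 of 12 and higher in 0, beside the same shares of all genes. Frontonasal pool 2 stood apart, with 1.17% of all genes at least 0.5 log2 units above every other array, against 0.0231% to 0.254% in the other pools. Liver and gut genes were among them. FGB, a fibrinogen chain made by liver, had a signal of 2292 there and 46.6 to 75.9 elsewhere. In pooled tissue, fewer cells of a type and less RNA per cell cannot be told apart.

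Of the 192 genes, 166 were above background in all 3 prominences, 14 in a pair of them and 12 in a single one. Of all 13009 measured genes, 9617 were above background in at least 1 prominence. Mitochondrial carriers were the most completely detected of the 14 classes, with 31 of 33 genes above background. Carriers of lipids, bile acids, fatty acids and choline came next, with 9 of 10. Nucleotide sugar and acetyl-CoA carriers had 19 of 24, amino acid carriers 31 of 45, sugar carriers 19 of 28 and metal carriers 18 of 25. In contrast, 14 of 28 anion carriers and 5 of 11 organic ion carriers were above background. The 8 genes with the highest mean signal were SLC25A6, SLC25A3, SLC38A1, SLC25A17, SLC25A13, SLC25A20, SLC25A5 and SLC18B1, of which 6 are mitochondrial family carriers. SLC25A6, an ADP/ATP exchanger, ranged from 4074 to 5333 over the 9 arrays, and SLC25A3, the mitochondrial phosphate carrier, from 3846 to 4684. Brightness depends on the probes as well as on the RNA, so signals of different genes are not ranked further. At the threshold, SLC18A3, SLC5A1 and SLC7A11 lay just inside, at 1.01 to 1.02 times background, and SLC5A12, SLC6A2 and SLC45A2 just outside, at 0.993 to 0.983 times.

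In all, 10 solute carrier genes were called in at least 1 comparison. Between mandibular and frontonasal pools 9 of 271 solute carrier genes were called (3.32%), beside 4.14% of all genes and 2.53% of all probe sets. SLC25A12, SLC41A1, SLC38A6 and SLC5A7 were higher in the mandibular pools, and SLC35F2, SLC16A10, SLC6A9, SLC4A1 and SLC2A10 were lower, where 1.83% of all genes were higher and 2.31% lower. Between maxillary and frontonasal pools 6 genes were called (2.21%), beside 3.52% of all genes and 2.25% of all probe sets. Of these, SLC25A12, SLC25A21 and SLC41A1 were higher in the maxillary pools, and SLC35F2, SLC16A10 and SLC6A9 were lower, where 1.31% of all genes were higher and 2.21% lower. These comparisons share the frontonasal arrays. Between mandibular and maxillary pools SLC5A7 was the 1 gene called (0.369%), beside 0.454% of all genes and 0.263% of all probe sets. The moderated F test over the 3 prominences called 6 carriers (2.21%), beside 4.18% of all genes and 2.64% of all probe sets. It did not call SLC16A10, SLC25A21, SLC4A1 and SLC38A6 (F test adjusted p = 0.0501, 0.0553, 0.0649 and 0.0982). The shares of carriers lay below those of all genes and on either side of those of all probe sets, and the differences between shares were not tested.

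The number of calls changed when single pools were left out. Leaving out an array also lowers the precision of a fit, and this was not separated from the weight of a single pool. The mandibular to frontonasal count was 3, 4 and 5 when mandibular pool 1, 2 or 3 was left out, and 4 without frontonasal pool 1. It was 11 without frontonasal pool 2, 7 without frontonasal pool 3, and 7, 8 and 6 without maxillary pool 1, 2 or 3. The maxillary to frontonasal count was 2 without frontonasal pool 1, maxillary pool 1 or maxillary pool 2, 3 without frontonasal pool 3 or maxillary pool 3, and 4 without frontonasal pool 2. It was 4, 5 and 4 without mandibular pool 1, 2 or 3. The F test count fell to 3 without frontonasal pool 1.

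**Figure D1:**
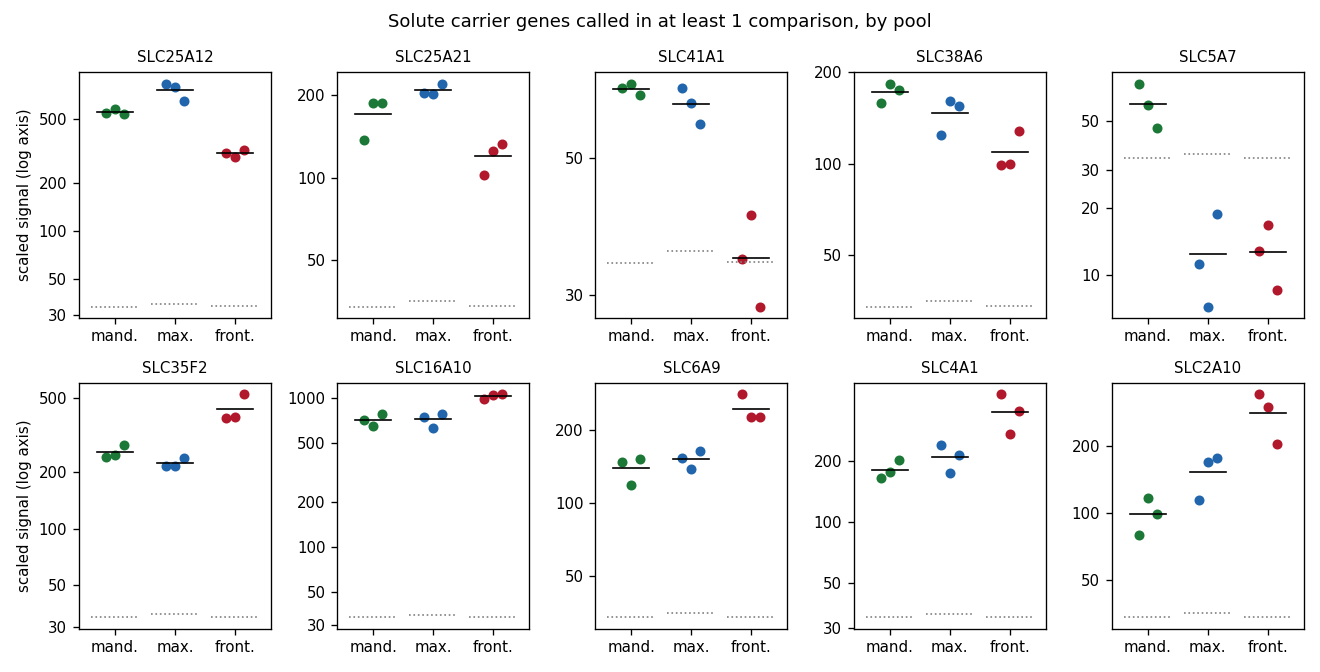
Signal of the 10 solute carrier genes called in at least 1 comparison, by prominence. Points are pools (3 per prominence, in the order 1 to 3), black bars are means, dotted lines are the mean background of the group's arrays, and each log axis has its own range. SLC5A7 lies below background in all maxillary and frontonasal pools, and SLC25A12 is lowest in the 3 frontonasal pools, at 290 to 319.

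Mitochondrial carriers were grouped by family number, and most of them exchange metabolites across the inner membrane. Of these 33 genes, 1 was called between mandibular and frontonasal pools, beside 4.14% of all genes. Between maxillary and frontonasal pools 2 of 33 were called, beside 3.52%. Counts this small set no class apart from all genes, here and in the classes that follow. SLC25A12 encodes the aspartate and glutamate exchanger known as aralar, part of the malate-aspartate shuttle that carries reducing equivalents into mitochondria. Its signals were 548, 577 and 541 in the mandibular pools, 836, 792 and 646 in the maxillary pools and 308, 290 and 319 in the frontonasal pools. The 3 groups did not overlap, with maxillary pools highest and frontonasal pools lowest. Relative to the frontonasal mass, SLC25A12 was higher by a log2 difference of 1.26 ± 0.11 in the maxillary pools (SE, n = 3, limma adjusted p = 0.000668). In the mandibular pools it was higher by 0.83 ± 0.11 (adjusted p = 0.00496). The difference of -0.43 between mandibular and maxillary pools was not called (adjusted p = 0.262). Both calls stayed when any 1 array was left out, with adjusted p of at most 0.00595 in the maxillary and 0.0293 in the mandibular comparison.

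SLC25A13, the paralogous aspartate and glutamate exchanger known as citrin, had means of 2046 ± 161, 1642 ± 59.7 and 1878 ± 214 (SD, n = 3) in mandibular, maxillary and frontonasal pools. Its differences from the frontonasal mass were 0.13 and -0.19 and were not called (adjusted p = 0.685 and 0.492). SLC25A21 carries oxodicarboxylates of lysine and tryptophan breakdown. It measured 138, 187 and 188 in mandibular, 203, 203 and 221 in maxillary, and 102, 125 and 133 in frontonasal pools. All maxillary and mandibular pools were above the frontonasal ones. The maxillary difference of 0.73 ± 0.13 was called (limma adjusted p = 0.0306) and the mandibular difference of 0.45 was not (adjusted p = 0.162). The maxillary call was lost without any 1 of the 3 frontonasal or 3 maxillary pools, where the adjusted p reached 0.102.

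The chromosomal neighbours of the called genes were looked up in gene order of the assembly GRCg7b, taking the 3 nearest measured genes on each side. The neighbours were chosen for a look after the calls were known. SLC25A12 lies 3 places from DLX1, a homeobox regulator of pharyngeal arch patterning, with METAP1D, a mitochondrial methionine aminopeptidase, and HAT1, a histone acetyltransferase, between them. DLX1 had signals of 160, 129 and 111 in mandibular, 237, 260 and 192 in maxillary, and 7.47, 6.46 and 9.83 in frontonasal pools. It was not above background on any frontonasal array, and was at least 6.73-fold higher in maxillary and at least 3.90-fold higher in mandibular pools. METAP1D was higher by 1.33 ± 0.10 in maxillary and 0.95 ± 0.10 in mandibular than in frontonasal pools (limma adjusted p = 0.000501 and 0.00236). HAT1, which lies next to SLC25A12, was not called, at 0.41 and 0.19 (adjusted p = 0.108 and 0.496). On the other side, DYNC1I2 had differences of 0.37 and 0.19 and was not called (adjusted p = 0.109 and 0.438).

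SLC25A21 lies next to PAX9, a paired box regulator of tooth and palate development. PAX9 measured 83.5, 123 and 117 in mandibular, 138, 148 and 123 in maxillary, and 31, 38 and 39.2 in frontonasal pools, of which 2 of 3 exceeded background. It was higher than in the frontonasal mass by 1.55 ± 0.14 in maxillary and 1.24 ± 0.14 in mandibular pools (limma adjusted p = 0.00108 and 0.00298). MIPOL1, on the other side of SLC25A21, had differences of 0.46 and 0.72 that were not called (adjusted p = 0.242 and 0.0636). SLC2A10, described with the sugar carriers, lies next to EYA2, a coactivator of transcription in sensory placodes and muscle precursors. EYA2 measured 86.0, 76.9 and 91.0 in mandibular, 189, 229 and 259 in maxillary, and 599, 472 and 648 in frontonasal pools. It was lower in mandibular than in frontonasal pools by a log2 difference of -2.54 ± 0.15 (limma adjusted p = 0.000134), and in maxillary pools by -1.29 ± 0.15 (adjusted p = 0.00326).

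Not every called carrier had such a neighbour. Between mandibular and frontonasal pools 5 of 54 neighbours of called carriers were called (9.26%), 3 of them in the direction of their carrier, at 2 carriers. Around the other solute carrier genes 64 of 1437 neighbours were called (4.45%), beside 4.14% of all genes. There 30 pairs of carrier and called neighbour had the same direction, at 25 of 262 carriers. Between maxillary and frontonasal pools the counts were 3 of 36 (8.33%) and 47 of 1449 (3.24%), beside 3.52% of all genes. The same direction was seen in 3 pairs at 2 of 6 called carriers and in 30 pairs at 26 of 265 others. Several called neighbours lay at the same carrier. Counted by carrier, 3 of 9 called and 52 of 262 other carriers had a called neighbour in the mandibular comparison. In the maxillary comparison 2 of 6 and 43 of 265 had one. The totals of other carriers include some without a measured neighbour, since 267 of the 271 carriers had one. Every called carrier did. Beside SLC16A10, which was lower in the mandibular pools, REV3L and TRAF3IP2 were higher there, by 0.85 and 0.58 (limma adjusted p = 0.00559 and 0.0133). These shares are descriptive, since neighbouring genes and the carriers came from the same arrays.

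**Figure D2:**
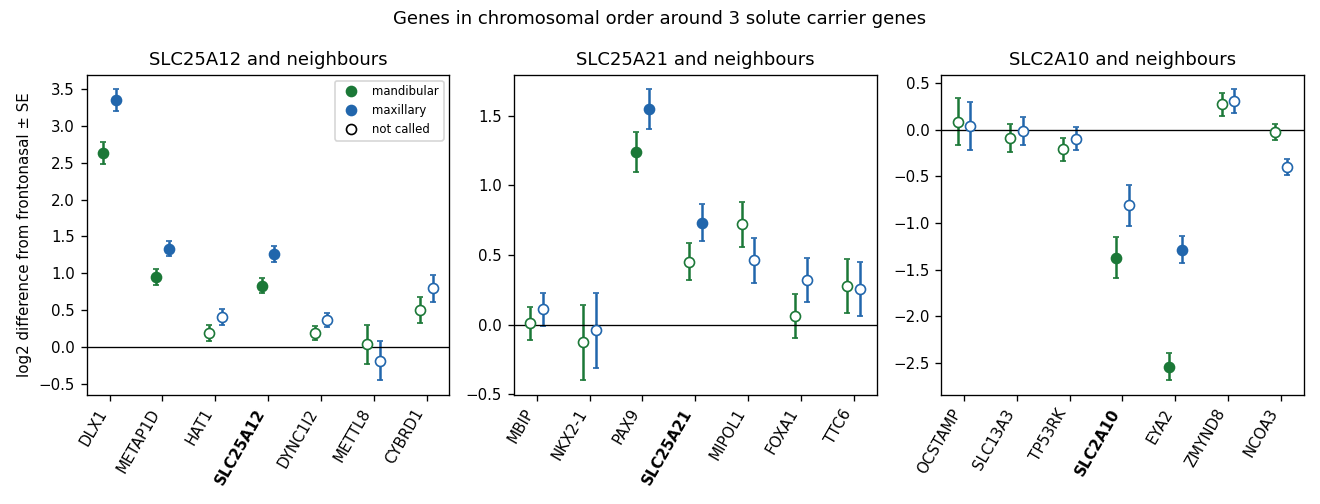
Log2 difference from the frontonasal mass (y axis, ± SE, from 3 pools per group) for SLC25A12, SLC25A21 and SLC2A10, named in bold, and the 3 nearest measured genes on each side, in chromosomal order along the x axis with no distances. Filled points were called and open points were not; DLX1 and METAP1D near SLC25A12, PAX9 beside SLC25A21 and EYA2 beside SLC2A10 were called in both comparisons.

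The ADP/ATP exchangers, which hand mitochondrial ATP to the cell, showed no called difference. SLC25A4 differed from the frontonasal mass by 0.25 in mandibular and 0.06 in maxillary pools, SLC25A5 by -0.08 in both and SLC25A6 by -0.16 and -0.10. Their 95% intervals all lay inside 1 log2 unit, and that of SLC25A4 in the mandibular comparison reached furthest from 0, from -0.07 to 0.58. SLC25A37, or mitoferrin, which brings iron into the mitochondria of developing red cells, had signals of 746, 940 and 1259 in mandibular pools. Its maxillary signals were 1167, 865 and 1298 and its frontonasal signals 1436, 1498 and 1772. All frontonasal pools exceeded the others, yet the differences of -0.69 and -0.51 were not called (adjusted p = 0.169 and 0.327). SLC25A38, a glycine carrier of heme synthesis, and SLC25A28, the mitoferrin of other cells, differed by -0.11 to -0.02 and were not called.

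Sugar carriers were represented by 28 genes, of which 2 were called between mandibular and frontonasal pools and 0 by limma between maxillary and frontonasal pools, beside 4.14% and 3.52% of all genes. The 28 include SLC5A7, which belongs to the family by number and carries choline. SLC2A10, or GLUT10, is a facilitative transporter whose loss in humans causes arterial tortuosity. Its signals were 79.9, 117 and 98.4 in mandibular, 115, 170 and 177 in maxillary, and 344, 303 and 205 in frontonasal pools. The frontonasal pools were above all others, and the mandibular and maxillary pools overlapped. In the mandibular pools it was lower by a log2 difference of -1.37 ± 0.22 (limma adjusted p = 0.0149), the largest fall among the carriers in that comparison. The maxillary difference was -0.81 ± 0.22 and was not called (limma adjusted p = 0.128). It was called with the mean over all its probe sets (-0.58, adjusted p = 0.0335) and among probe sets above background alone (adjusted p = 0.0438). That last filter is the rule that kept genes and uses the prominence labels, so a call under it is no independent support. In the mandibular comparison a second of the 3 SLC2A10 probe sets was called as well, at -1.01 (adjusted p = 0.013). The third was not, at -0.48 (adjusted p = 0.228). The call was lost without mandibular pool 1, mandibular pool 3 or frontonasal pool 1, with adjusted p from 0.0556 to 0.0649.

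SLC2A1, or GLUT1, the widespread basal glucose transporter, measured 197, 187 and 191 in mandibular, 190, 199 and 197 in maxillary, and 169, 198 and 154 in frontonasal pools. The groups overlapped, and the differences of 0.14 and 0.16 were not called (95% intervals -0.08 to 0.35 and -0.05 to 0.38). SLC16A1 and SLC16A3, monocarboxylate carriers that move lactate across the cell membrane, were not called either. SLC16A1 had means of 1433 ± 88.8, 1395 ± 90.9 and 1346 ± 66.4 (SD, n = 3) in mandibular, maxillary and frontonasal pools, and SLC16A3 of 235 ± 34.9, 278 ± 45.8 and 230 ± 47.8. BSG, the chaperone that brings these carriers to the membrane, differed by -0.16 and -0.17 and was not called. Of 17 measured genes of glycolysis and lactate metabolism 0 were called by limma in either comparison with the frontonasal mass. Beside 4.14% and 3.52% of all genes, a count of 0 does not set so short a list apart.

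In the same family as the lactate carriers, SLC16A10 transports aromatic amino acids and thyroid hormones. It measured 720, 655 and 779 in mandibular, 747, 635 and 785 in maxillary, and 983, 1048 and 1062 in frontonasal pools. The frontonasal pools lay above both other groups, which overlapped. The differences of -0.52 ± 0.10 and -0.51 ± 0.10 were just called (limma adjusted p = 0.0421 and 0.0481). Of its other 5 probe sets, 1 was called in both comparisons, at -0.58 and -0.68 (adjusted p = 0.027 and 0.015), and 4 were not. The maxillary call was lost without any 1 of the 9 arrays and the mandibular call without any 1 except maxillary pool 2, with adjusted p up to 0.145. Both calls were also lost with the mean over all its probe sets (limma adjusted p = 0.119 and 0.0626). The same held with 1 instead of 16 added to the signal and with only the 6 arrays compared. With the replicate number as a block, the maxillary call was lost too (adjusted p = 0.0556).

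**Figure D3:**
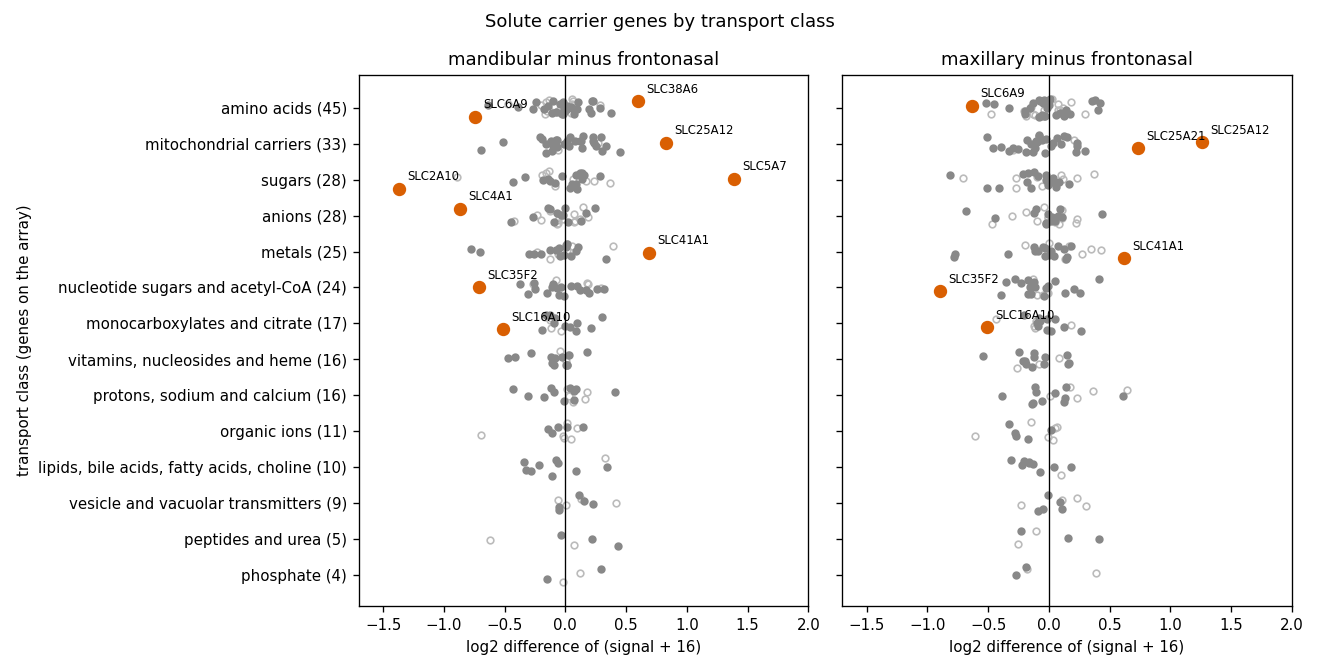
Log2 difference of (signal + 16) from the frontonasal mass (x axis) for each of the 271 solute carrier genes, by transport class (y axis, number of genes in parentheses). Orange points were called and carry names, grey points were above background and not called, and open points were not above background; vertical scatter within a class has no meaning. The called genes are spread over 7 classes.

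Amino acid carriers were the largest class, with 45 genes. Of these, 1 was higher and 1 lower in mandibular than in frontonasal pools, and 1 was lower in maxillary pools, beside 4.14% of all genes called in the first comparison and 3.52% in the second. SLC6A9, or GLYT1, takes up glycine with sodium and chloride, at synapses and in developing red cells. Its signals were 148, 118 and 152 in mandibular, 154, 138 and 164 in maxillary, and 281, 227 and 226 in frontonasal pools. Every frontonasal pool exceeded every other pool. It was lower by -0.74 ± 0.12 in mandibular and -0.63 ± 0.12 in maxillary pools (limma adjusted p = 0.0176 and 0.0404). The mandibular call was lost without mandibular pool 1, mandibular pool 2 or frontonasal pool 1 (adjusted p up to 0.0627). The maxillary call was lost without any 1 array except mandibular pool 2 (adjusted p up to 0.146).

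SLC38A6 belongs to the family of sodium-coupled neutral amino acid transporters. It measured 159, 184 and 175 in mandibular, 124, 160 and 155 in maxillary, and 99.1, 99.9 and 128 in frontonasal pools. Mandibular and frontonasal pools did not overlap, and the difference of 0.60 ± 0.13 lay at the edge of the test (limma adjusted p = 0.0498). It was lost without any 1 of 7 pools, which were the 3 mandibular pools, frontonasal pools 1 and 2 and maxillary pools 2 and 3. The adjusted p then ran from 0.0715 to 0.166. The maxillary difference of 0.38 was not called (adjusted p = 0.218), except with the mean over all its probe sets (0.37, adjusted p = 0.0378).

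The other amino acid carriers of the panel were not called. SLC7A5, or LAT1, the large neutral amino acid exchanger, had signals from 452 to 670 in all pools and differences of -0.03 in both comparisons, with intervals from -0.42 to 0.35. SLC38A2, induced in many cells by amino acid shortage, measured 287, 282 and 296 in mandibular pools, above the 230, 266 and 238 of the frontonasal pools. Its difference of 0.23 was not called (adjusted p = 0.242). SLC1A3, a glutamate transporter best known from glia, measured 68.7, 60.7 and 69.8 in maxillary pools, above the 41.5 to 53.5 of all other pools. Its maxillary difference of 0.42 ± 0.09 fell just short (limma adjusted p = 0.0582). It was called under 4 of the other processing choices. They were a pseudocount of 50, quantile normalization and no further scaling (limma adjusted p = 0.0379, 0.0492 and 0.0297), and probe sets above background alone (adjusted p = 0.0381). That last filter uses the prominence labels, so a call under it is no independent support. SLC7A11, the cystine importer, was above background in the mandibular pools only, at 32.3, 34.8 and 36.6, against 26.3 to 30.5 elsewhere, and was not called (adjusted p = 0.26). The creatine transporter SLC6A8 stayed below background on all arrays. Of 7 measured genes of the amino acid response 0 were called by limma against the frontonasal mass. Beside 4.14% and 3.52% of all genes, that count does not set the list apart.

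SLC5A7 is the high-affinity choline transporter that supplies acetylcholine synthesis in cholinergic neurons. Its signals were 73.5, 59 and 46.2 in the mandibular pools, 11.2, 7.20 and 18.8 in the maxillary pools and 12.8, 16.9 and 8.51 in the frontonasal pools. All 3 mandibular pools were above background and none of the other 6 was, so the gene met the rule through the mandibular prominence. Taking background as the lowest level, it was at least 1.73-fold higher in mandibular than in frontonasal pools and at least 1.66-fold higher than in maxillary pools. It was called in both comparisons, by a fit to the signals without that lowest level (limma adjusted p = 0.00699 and 0.0323). The first call stayed when any 1 array was left out (adjusted p up to 0.0354). The call against maxillary pools was lost without any 1 array except frontonasal pools 2 and 3, with adjusted p from 0.0534 to 0.134.

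SLC18A3, the vesicular acetylcholine transporter, was likewise above background on all 3 arrays in the mandibular prominence alone. It measured 31.9, 35.6 and 39.6 in mandibular pools against 24.96, 35.6 and 35.7 in the frontonasal mass, close to background in both, and was not called (adjusted p = 0.768). CHAT, the acetylcholine synthase, had means of 54.8 ± 5.17, 44.1 ± 13.8 and 47.02 ± 11.2 (SD, n = 3) in mandibular, maxillary and frontonasal pools and was not called (limma adjusted p of at least 0.77). ACHE, which breaks acetylcholine down, was below background on all arrays. Of 12 measured neuronal genes, 0 were higher and 2 lower in mandibular than in frontonasal pools, and 0 were higher and 4 lower in maxillary pools. Of all genes, 1.83% were higher and 2.31% lower in the first comparison, and 1.31% and 2.21% in the second. Between mandibular and maxillary pools 1 was higher, STMN2, and 0 were lower, beside 0.292% and 0.161% of all genes. STMN2, a neuronal microtubule regulator, measured 271, 145 and 190 in mandibular, 49.4, 43.8 and 66.6 in maxillary, and 125, 116 and 120 in frontonasal pools. It was higher in mandibular than in maxillary pools by 1.63 ± 0.20 (limma adjusted p = 0.0253). The 2 genes lower in mandibular than in frontonasal pools were NEUROG1 and NEUROG2, neuronal determination factors (adjusted p = 0.00347 and 0.00262). Neither was above background on any mandibular array, and NEUROG1 exceeded it on 1 frontonasal array and NEUROG2 on none, so no fold is given. ISL1, a factor of motor and sensory neurons that is also found in other arch tissue, measured 427, 463 and 448 in mandibular and 150, 159 and 139 in maxillary pools. In frontonasal pools it measured 47.6, 363 and 45.02, the 363 in pool 2, which stood apart in other genes. The mandibular differences of 2.02 from frontonasal and 1.48 from maxillary pools were not called (limma adjusted p = 0.161 and 0.644). Of the 12 neuronal genes, 3 were below background on all arrays. Bright genes weigh most in the summed signal of the list. It ran from 1512 to 1683 in mandibular, 800 to 845 in maxillary and 899 to 1379 in frontonasal pools, with 1379 in frontonasal pool 2. The list's median did not follow the sum. Relative to the frontonasal mass, the median log2 difference was -0.06 in mandibular and -0.59 in maxillary pools, beside 0.00 and -0.01 for all genes. Relative to maxillary pools, it was 0.23 in mandibular pools, beside 0.01. The part of neurons in the SLC5A7 difference was not tested. Among carriers that take up choline for membrane lipids, SLC44A1 differed from the frontonasal mass by -0.22 and -0.13, SLC44A3 by 0.34 and -0.17 and SLC44A5 by -0.34 and -0.22, and none was called.

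Anion carriers numbered 28, and 1 of them was called, between mandibular and frontonasal pools, beside 4.14% of all genes. SLC4A1, or band 3, exchanges chloride for bicarbonate in the red cell membrane and anchors its skeleton. It measured 163, 176 and 202 in mandibular, 239, 173 and 213 in maxillary, and 424, 269 and 350 in frontonasal pools. The frontonasal pools lay above all others, which overlapped. It was lower in mandibular pools by a log2 difference of -0.87 ± 0.17 (limma adjusted p = 0.0385), and the maxillary difference of -0.69 ± 0.17 was not called (adjusted p = 0.101). The mandibular call was lost without any 1 array except frontonasal pool 2 and maxillary pool 2 (adjusted p up to 0.14). Without frontonasal pool 2 it was -1.04 (adjusted p = 0.0149), and the maxillary difference of -0.85 was then called as well (adjusted p = 0.0403). Among probe sets above background alone, a filter that uses the prominence labels, the maxillary difference of -0.69 was called too (limma adjusted p = 0.0353).

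SLC4A1 was read beside markers of red cells. Of 9 measured erythroid genes 0 were called by limma against the frontonasal mass, beside 4.14% and 3.52% of all genes. That count does not set the list apart. Its medians were -0.29 and -0.22 in the mandibular and maxillary comparisons, beside 0.00 and -0.01 for all genes. The summed signal was 14640 to 15270 in frontonasal, 11494 to 13728 in mandibular and 11903 to 15403 in maxillary pools. HBAD, an alpha-type globin, measured 4393, 4632 and 4269 in frontonasal and 3744, 3380 and 3488 in mandibular pools, a difference of -0.32 that was not called (adjusted p = 0.218). EPB42, which binds band 3, had a difference of -0.60 (adjusted p = 0.298). RHAG was below background on all arrays. The part of red cells in the SLC4A1, SLC6A9 and SLC25A37 differences was not tested.

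SLC12A2, or NKCC1, a sodium, potassium and chloride cotransporter, measured 87.8, 83.9 and 83.5 in mandibular, 72.5, 96.8 and 87.7 in maxillary, and 129, 132 and 105 in frontonasal pools. The frontonasal pools were highest, and the differences of -0.45 ± 0.12 in both comparisons were not called (adjusted p = 0.103 and 0.108). The sulfate carrier SLC26A2, needed for cartilage matrix, and the phosphate carrier SLC20A1 were below background on all arrays. Among partners outside the family, ATP1B1, a subunit of the sodium pump, was lower in mandibular and maxillary than in frontonasal pools, by -0.57 ± 0.10 and -0.85 ± 0.10 (limma adjusted p = 0.021 and 0.00354). Its signals were 421, 455 and 425 in mandibular, 370, 342 and 349 in maxillary, and 578, 737 and 652 in frontonasal pools, without overlap between groups. The phosphate exporter XPR1 was lower in maxillary pools, by -0.40 ± 0.08 (adjusted p = 0.0395). These were 2 of 55 measured partners, organic anion carriers and ATP-driven transporters. Of the 55, 1 was called in the mandibular and 2 in the maxillary comparison, beside 4.14% and 3.52% of all genes.

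The 25 metal carriers included 1 gene called against the frontonasal mass, in both comparisons, beside 4.14% and 3.52% of all genes. SLC41A1, a magnesium transporter, measured 64.9, 66.0 and 63.1 in mandibular, 64.9, 61.4 and 56.7 in maxillary, and 34.2, 40.4 and 28.7 in frontonasal pools. The mandibular and maxillary pools overlapped and lay above all frontonasal ones, of which 1 of 3 exceeded its background. The differences from the frontonasal mass were 0.68 ± 0.10 and 0.62 ± 0.10 (limma adjusted p = 0.00891 and 0.016). Their sizes rest in part on the 2 frontonasal values that did not exceed background. The maxillary call was lost without frontonasal pool 1, maxillary pool 1 or maxillary pool 2 (adjusted p up to 0.0704). Its other 3 probe sets were not called. Their group means of 14.8 to 30.5 lay under the lowest background of any array, 31.6, though some of their arrays exceeded background. Averaging these dim probe sets with the brightest removed both calls (limma adjusted p = 0.798 and 0.63). SLC41A2, a related carrier, measured 207, 221 and 227 in mandibular and 275, 334 and 306 in maxillary pools, a difference of -0.45 that was not called (adjusted p = 0.532).

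Several zinc, manganese and iron carriers had wide intervals. SLC39A8, an importer of zinc and manganese, measured 100, 111 and 210 in mandibular, 136, 90.4 and 191 in maxillary, and 219, 204 and 307 in frontonasal pools. Its differences were -0.78 ± 0.31 and -0.77 ± 0.31 and were not called (adjusted p = 0.318 and 0.312). SLC30A10, a manganese exporter, had differences of -0.70 and -0.78 (adjusted p = 0.288 and 0.229). SLC30A1, a zinc exporter, had differences of -0.20 and -0.33 and overlapped between all groups. SLC40A1, or ferroportin, the iron exporter, measured 42.7, 55.2 and 45.5 in mandibular pools and 19.97, 47.4 and 40.3 in frontonasal pools, of which 2 of 3 exceeded background, a difference of 0.33 that was not called (adjusted p = 0.554).

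Of 24 nucleotide sugar and acetyl-CoA carriers, which load the Golgi and endoplasmic reticulum with donors for glycan synthesis, 1 was called in both comparisons with the frontonasal mass, beside 4.14% and 3.52% of all genes. SLC35F2 belongs to this group by sequence. It measured 242, 249 and 281 in mandibular, 217, 218 and 240 in maxillary, and 391, 393 and 522 in frontonasal pools. No pool of the other prominences reached the frontonasal range. It was lower by -0.90 ± 0.12 in maxillary and -0.71 ± 0.12 in mandibular pools (limma adjusted p = 0.00809 and 0.021). The maxillary call stayed when any 1 array was left out (adjusted p up to 0.0424). The mandibular call was lost without mandibular pool 1 or 2 (adjusted p = 0.0869 and 0.0855). Its other 2 probe sets, with means of 45.3 to 108, were lower as well in value but were not called (adjusted p of at least 0.156).

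SLC35D1, which brings sugar donors of chondroitin sulfate into the endoplasmic reticulum, measured 281, 266 and 245 in mandibular pools, against 296, 328 and 371 in the frontonasal mass. The groups did not overlap, and the difference of -0.31 ± 0.10 was not called (adjusted p = 0.211). SLC35B2, the carrier of the sulfate donor, differed by -0.10 and -0.01 and was not called (adjusted p = 0.81 in the mandibular comparison). With the mean over all its probe sets the mandibular difference was -0.56 and was called (adjusted p = 0.0379). SLC35B4 differed by 0.10 and -0.11. SLC33A1, the acetyl-CoA transporter, measured 738, 728 and 817 in mandibular, 755, 725 and 768 in maxillary, and 1001, 1074 and 897 in frontonasal pools. Its frontonasal pools were highest, and the differences of -0.37 and -0.39 fell short of the test (limma adjusted p = 0.0876 and 0.0767). Both were called with a pseudocount of 50 (adjusted p = 0.0417 and 0.0363). SLC35G2 had a maxillary difference of 0.41 ± 0.09 that was not called (adjusted p = 0.0635). It was called with a pseudocount of 50 (limma adjusted p = 0.032). Under the filter for probe sets above background, which uses the prominence labels, it was called as well (adjusted p = 0.0412). So it was with the mean over all its probe sets (adjusted p = 0.0144). With that mean its mandibular difference was called too (0.39, adjusted p = 0.0272). SLC33A1 and SLC35G2 are named for their closeness to the threshold, after their values were seen.

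In the remaining classes no gene was called against the frontonasal mass, beside 4.14% and 3.52% of all genes. Without frontonasal pool 2, SLC14A2 and SLC24A2 were called in the mandibular comparison, at 0.55 and -0.51 (limma adjusted p = 0.0283 and 0.0429). SLC24A2 was also called among probe sets above background alone, a filter that uses the prominence labels (adjusted p = 0.0443). With a pseudocount of 50, SLC22A5 was called in the maxillary comparison, at -0.32 (adjusted p = 0.0488). SLC29A1, an equilibrative nucleoside transporter, had means of 109 ± 6.96 in mandibular, 143 ± 27.6 in maxillary and 158 ± 27.2 (SD, n = 3) in frontonasal pools, with differences of -0.47 and -0.14 (limma adjusted p = 0.193 and 0.779). SLC19A1, the reduced folate carrier, measured 816, 742 and 754 in mandibular, 721, 740 and 707 in maxillary, and 746, 845 and 912 in frontonasal pools. Its differences were -0.11 and -0.20 (adjusted p = 0.695 and 0.388). The vesicular transmitter carriers SLC17A6 for glutamate and SLC32A1 for GABA and glycine were below background on all arrays. SLC18A2, for monoamines, reached background in 2 maxillary pools.

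The 12 genes above background in a single prominence had their lowest array there at 1.01 times background, for SLC18A3, to 1.39 times, for SLC25A1. They were SLC25A1, SLC35A5, SLC40A1, SLC6A5, SLC6A20, SLC18A3, SLC7A11 and SLC5A7 in the mandibular pools, SLC4A3 and SLC15A2 in the maxillary pools, and SLC5A1 and SLC22A16 in the frontonasal pools. Apart from SLC5A7 none was called, and the other 11 had limma adjusted p of at least 0.26. SLC15A2, a peptide transporter, measured 40.8, 56.1 and 42.0 in maxillary against 27.8, 34.8 and 29.2 in frontonasal pools, of which 1 of 3 exceeded background, a difference of 0.41 that was not called (adjusted p = 0.363). SLC6A20, an imino acid transporter, ranged from 12.6 to 63.9 among the frontonasal pools.

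**Figure D4:**
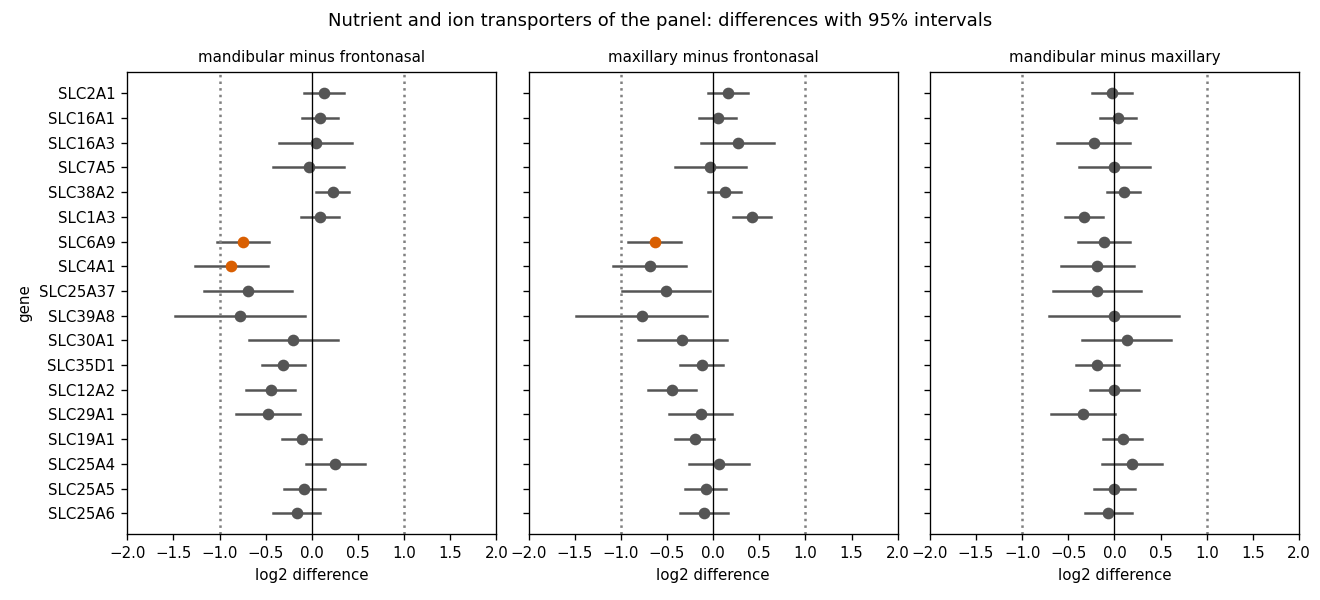
Log2 differences (x axis) with 95% limma intervals for 18 nutrient and ion transporters (y axis) in the 3 comparisons, from 3 pools per group. Orange points were called and dotted lines mark 1 log2 unit either way; SLC6A9 and SLC4A1 are the called genes, and the widest intervals belong to SLC39A8.

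Differences over the whole set were small and their errors can be stated. The median log2 difference of the 271 carriers was -0.02 between mandibular and frontonasal pools, beside 0.00 for all genes. It was -0.04 between maxillary and frontonasal pools, beside -0.01, and 0.01 between mandibular and maxillary pools, beside 0.01. In 242 of 271 carriers (89.3%) the 95% interval lay inside 1 log2 unit in all 3 comparisons, as it did for 88.8% of all genes. Among the 192 kept carriers it did so in 174 (90.6%), beside 89.9% of all kept genes. The scale draws differences of genes below background toward 0, so a narrow interval there says little about their RNA. A difference of 1 log2 unit or more was measured for 2 carriers between mandibular and frontonasal pools, which were SLC5A7, below background in the frontonasal pools, and SLC2A10. SLC25A12 was the 1 such carrier between maxillary and frontonasal pools. The median residual SD of a carrier was 0.17 log2 units, beside 0.16 over all genes.

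Between mandibular and maxillary pools, after SLC5A7, the largest differences of kept genes were those of SLC2A10, at -0.56 ± 0.22, and SLC34A1, a phosphate cotransporter, at 0.56 (limma adjusted p = 0.629 and 0.627). SLC44A3 had a difference of 0.51 ± 0.17 (adjusted p = 0.513). SLC8A1, a sodium and calcium exchanger, measured 81.0, 99.3 and 95.4 in mandibular and 151, 121 and 123 in maxillary pools, without overlap. Its difference of -0.45 ± 0.11 was not called (adjusted p = 0.258). These 4 genes were named after their values were seen.

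Some carriers stood apart in 1 pool. In frontonasal pool 2, SLC6A2, the noradrenaline transporter, measured 141, against 29.4 to 38.5 in the other 8 pools. It is one of the genes just outside the limit. SLC16A12, of the monocarboxylate family and in humans a creatine transporter, measured 216 there and 66.7 and 70.1 in the other frontonasal pools. In the same pool SLC12A9 was low, at 20.3 against 51.8 to 118 elsewhere, and so was SLC6A7, at 43.2 against 71.9 to 136. The liver, gut and visceral list had a summed signal of 7655 in that pool and 2115 to 2511 in the other 8, and its median deviation was 0.42 against -0.13 to -0.04. The muscle and heart list was highest in that pool too, with a summed signal of 637 against 318 to 549. Its median deviation was 0.31 in that pool against -0.12 to 0.09. TTR, a carrier protein of liver, measured 1699 there and 82.8 to 236 elsewhere. Without frontonasal pool 2, SLC16A12 was higher in mandibular than in frontonasal pools, by 0.69 (limma adjusted p = 0.0264), whereas with all pools the difference was 0.21 (adjusted p = 0.87). The part of other organs in these values was not tested. SLC52A3, a riboflavin transporter, was low in mandibular pool 1, at 55.1 against 88.1 to 226, and SLC27A6, a fatty acid transporter, at 34.2 against 59.6 to 92.1. A gap of 0.5 log2 units to every other pool was the criterion, set after the data were seen.

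**Figure D5:**
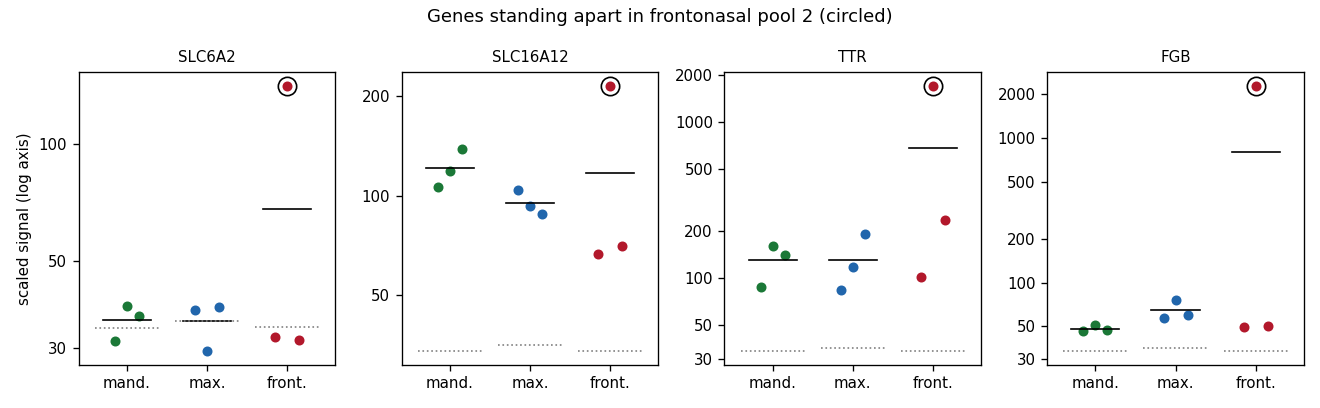
Signal (y axis, log scale with its own range in each panel) of SLC6A2, SLC16A12, TTR and FGB in the 9 pools. Points are pools, bars are group means, dotted lines are the mean background of each group's arrays, and a circle marks frontonasal pool 2, where FGB reached 2292.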

How the data were processed

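The authors deposited linear intensities of 38535 probe sets for each of 9 Affymetrix arrays of the chicken genome. RNA was extracted with a Qiagen kit and biotinylated cRNA came from 500 ng of total RNA in a 2-cycle procedure, per the labels' protocols. Neither the summarisation software nor a scan batch is given in the sources used here. All deposited columns had the same trimmed mean, 150.03, so they had been scaled before deposit. From these values, 96 control probe sets were left out, arrays were scaled to a common median (factors 0.961 to 1.04) and log2(signal + 16) was taken, which understates folds of dim genes. Background came from 598 viral and reporter probe sets. Gene symbols came from the platform annotation (27168 with 1 symbol, 177 with several and 11094 with none). The RefSeq table of GRCg7b held 267 of the 271 carrier genes. Its assembly was used for gene order alone, since the sources used here do not name a build for the array.

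Limma 3.58.1 in R 4.3.3 fitted group means to the 9 arrays together, leaving 6 residual degrees of freedom, with Benjamini-Hochberg adjustment over 38439 probe sets, and was tested on simulated data. A fold against a group below background is at least the brighter mean over the dimmer one with background as its lowest level. Named genes were the called carriers, a panel by role, the 8 brightest, the 3 nearest the limit on each side and those above background in a single prominence. Panel genes without a probe set under their symbol, among them SLC2A3, SLC3A2, SLC1A5, SLC11A2 and SLC39A14, were not analysed here. Members, lists and panel were chosen with earlier results of these data known. The other marker lists were muscle and heart (1 of 14 genes higher in mandibular and 1 in maxillary pools), kidney (1 of 4 lower in each) and leukocytes (0 of 5 called). Crest mesenchyme had 3 and 2 of 11 genes higher, and epithelium 1 of 8 higher in each and 2 and 4 lower. Of all genes, 1.83% and 1.31% were higher and 2.31% and 2.21% lower in the same comparisons. The number of arrays limits the precision.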

Additional observations from a re-analysis of the deposited data

How the results depend on the processing

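With 1 array left out, the carriers called numbered 3 to 11 between mandibular and frontonasal pools, 2 to 5 between maxillary and frontonasal pools, 0 to 1 between mandibular and maxillary pools and 3 to 5 in the F test, and 192 to 196 genes were above background. Under the other choices the first count was 4 with a pseudocount of 1 and 4 with the 6 arrays compared. The second was 3, 10 and 11 with a pseudocount of 1, a pseudocount of 50 and probe sets above background alone, and 3 with the 6 arrays compared. The count between mandibular and maxillary pools was 0 with a pseudocount of 1, with the 6 arrays compared, without the dimmest 40% of probe sets, which removed SLC5A7, and with the replicate number as a block. The F test called 10 among probe sets above background. That filter uses the prominence labels, so calls under it give no independent support. The causes were not tested. The block left the other counts within 1.5 times. Same-numbered pools of different prominences correlated at 0.0166 to 0.12 in their deviations and differently numbered pools at -0.095 to 0.0115, so each pool correlated best with its own number, which is a hint from the data and not the design, since the labels do not pair the pools. The 16 called gene and comparison pairs gave 302 combinations of pair and setting, of which 211 kept the call, 91 lost it and 0 changed sign. The pairs share the same settings and arrays, so these combinations are not independent. A pseudocount of 1 also removed the call of SLC25A21 in the maxillary comparison, and those of SLC35F2 and SLC4A1 in the mandibular one. SLC35F2 and SLC4A1 lost those calls with the 6 arrays compared too, as SLC41A1 did in the maxillary comparison. The 4 pairs called throughout were SLC25A12 in both comparisons with the frontonasal mass, SLC5A7 between mandibular and frontonasal pools, where the dimmest were kept, and SLC35F2 between maxillary and frontonasal pools. A gene below background on every array of a group has a bound or no fold. Genes above background numbered 145 to 208 under other limits and scalings.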
